A study of Mus musculus with 16 samples.

Results

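The NF-kB inhibitors of the IkB family and 2 deubiquitinases that restrain the same pathway were measured in naive T cells sorted by lineage and by surface CD5. The 8 genes were chosen by symbol: the classical IkB genes Nfkbia, Nfkbib and Nfkbie, the atypical IkB genes Nfkbiz, Nfkbid and Bcl3, and the deubiquitinase genes Tnfaip3 and Cyld. They are 8 of the 24421 genes in the count table, and all 8 were among the 13554 genes tested. The cells came from lymph nodes of C57BL/6 mice, with no treatment or genetic change named. All 4 groups were naive by surface staining, without CD25, high for CD62L and low for CD44: CD8 CD5hi, CD8 CD5lo, CD4 CD5hi and CD4 CD5lo, where hi and lo are the third of a lineage with the most and the third with the least CD5 at the surface. Each group had 4 libraries, numbered 1 to 4, which the design text calls biological replicates. Whether a number marks 1 mouse or a pool is not given, so p-values measure the spread between these libraries. The libraries numbered 4 held RNA of both sexes, as described below. The series title ties CD5 to basal NF-kB signalling, and the comparisons ask whether the transcripts of these inhibitors differ with CD5 level or with lineage.

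In resting cells, the classical IkB proteins hold NF-kB dimers in the cytoplasm. Signals from the T cell receptor or from TNF receptors activate the IkB kinases, IkB is degraded, and the freed dimers switch on target genes that include Nfkbia and Tnfaip3 themselves, a negative feedback loop. The atypical IkB proteins act mainly in the nucleus, where they raise or lower the transcription of chosen target genes. The deubiquitinases encoded by Tnfaip3 (A20) and Cyld remove the ubiquitin chains that carry the signal to the kinases, and A20 is abundant in resting lymphocytes. These processes run largely on proteins and their breakdown, which transcript counts do not measure.

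Libraries held 71447252 to 93418385 counts, and no member had fewer than 1359 counts in any of them. Cd5 followed the sort, at 469 to 552 CPM (normalised counts scaled to library size) in CD8 CD5hi against 187 to 216 in CD8 CD5lo, and at 1349 to 1427 in CD4 CD5hi against 237 to 276 in CD4 CD5lo. Cd3e was at 313 to 482 CPM throughout. Of the 16 B cell markers, 0 were at 0 in all libraries of any group, and their summed level ran from 219.9 to 1275 CPM in CD8 CD5hi, 283 to 857 in CD8 CD5lo, 288 to 329 in CD4 CD5hi and 299.95 to 676 in CD4 CD5lo. The 3 libraries richest in them were CD8 CD5hi replicate 4, CD8 CD5lo replicate 3 and CD4 CD5lo replicate 3, with Cd74 at 135 to 319 CPM, against 4.73 to 16.5 in the other 13. Outside these 3 libraries Cd37 made up most of the sum, at up to 290 CPM in CD4 CD5hi, where no other marker passed 14.8. The same libraries held more of the other coreceptor, with Cd4 at 62.2 CPM in CD8 CD5hi replicate 4 and 27.2 in CD8 CD5lo replicate 3, against 0.415 to 2.51 in the other CD8 libraries, and Cd8a at 11.4 in CD4 CD5lo replicate 3, against 0.693 to 5.49 in the other CD4 libraries. Xist, transcribed from the inactive X chromosome, was at 225 to 259 CPM in the 4 libraries numbered 4 and at most 0.351 in the other 12, and Ddx3y of the Y chromosome was at 47.2 to 59.3 CPM in those 4 and 91.6 to 126 in the other 12. The libraries numbered 4 thus held RNA of both sexes in every group, unlike the other 12. In such bulk samples, fewer cells of a type and less RNA per cell cannot be told apart.

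Expressed as CPM per kilobase of exon (RPKM), the levels of the members spread widely. Nfkbia was highest at 205 ± 49.5 RPKM and Tnfaip3 next at 174 ± 75.3 (SD over 16 libraries). Nfkbid followed at 55.2 ± 12.2, Nfkbiz at 31.2 ± 6.32 and Nfkbib at 21.7 ± 1.19. The lowest were Nfkbie at 14.8 ± 2.25, Cyld at 14.0 ± 0.932 and Bcl3 at 12.7 ± 5.24. The order from Tnfaip3 down to Nfkbie held in 16 of 16 libraries at each step. Nfkbia exceeded Tnfaip3 in 11 of 16, Nfkbie exceeded Cyld in 9 of 16 and Cyld exceeded Bcl3 in 11 of 16, so those neighbours were not separated. The genes lie apart in the genome (GRCm38, GENCODE vM21): Nfkbia at chr12:55489410-55492647, Nfkbie at chr17:45555703-45563169, Nfkbiz at chr16:55811375-55838899, Tnfaip3 at chr10:19000910-19015657 and Cyld at chr8:88697028-88751945. Chromosome 7 carries Nfkbib at chr7:28758251-28767512, Nfkbid at chr7:30421732-30428746 and Bcl3 at chr7:19808462-19822770. Lengths are those of the union of annotated exons, and a cell may use only some of them. Nfkbib shares 14.5% of its exonic bases with Ccer2 and 1.94% with Sirt2, and Bcl3 shares 6.51% with the antisense gene Gm16175. The strand setting of the counting is not given, so reads in those stretches cannot be assigned.

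The promoters are shown for the 3 members whose levels moved together most closely between libraries of a group, as described further on. Capitals mark matches to the kappaB consensus, the ten-letter motif bound by NF-kB dimers, searched on both strands. Each sequence is from RefSeq (GRCm38.p6), runs from 250 bases before to 50 bases after the start of a RefSeq transcript, and is read 5′ to 3′ along the gene. Distances are counted from that start, which for Tnfaip3 lies inside the wider span of the gene in GENCODE. Tnfaip3 lies at chr10:19015361-19015660 on the minus strand, Nfkbia at chr12:55492598-55492897 on the minus strand and Nfkbie at chr17:45555450-45555749 on the plus strand.
Tnfaip3: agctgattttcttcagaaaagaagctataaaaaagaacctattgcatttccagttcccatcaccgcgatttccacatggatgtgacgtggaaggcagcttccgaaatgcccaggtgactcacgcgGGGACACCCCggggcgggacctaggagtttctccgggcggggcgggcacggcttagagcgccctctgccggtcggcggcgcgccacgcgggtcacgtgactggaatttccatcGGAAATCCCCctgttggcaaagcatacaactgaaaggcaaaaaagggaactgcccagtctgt
Nfkbia: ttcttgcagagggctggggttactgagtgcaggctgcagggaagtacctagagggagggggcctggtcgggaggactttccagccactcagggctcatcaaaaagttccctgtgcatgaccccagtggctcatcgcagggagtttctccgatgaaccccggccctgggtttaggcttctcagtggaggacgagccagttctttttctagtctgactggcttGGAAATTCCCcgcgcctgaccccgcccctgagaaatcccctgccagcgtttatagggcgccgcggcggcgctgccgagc
Nfkbie: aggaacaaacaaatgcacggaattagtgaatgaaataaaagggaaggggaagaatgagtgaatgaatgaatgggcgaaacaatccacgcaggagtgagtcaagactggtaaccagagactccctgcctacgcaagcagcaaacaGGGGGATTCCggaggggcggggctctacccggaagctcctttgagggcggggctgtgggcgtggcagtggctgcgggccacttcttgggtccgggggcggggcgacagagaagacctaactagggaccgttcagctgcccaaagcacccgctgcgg
In the promoter of Tnfaip3, GGAAATCCCC began 12 bases and GGGACACCCC 125 bases before the start. In that of Nfkbia, GGAAATTCCC began 29 bases before the start, and in that of Nfkbie, GGGGGATTCC began 106 bases before it. Windows were found for 7 of the 8 members, and 6 of their 10 windows, of 6 members, held a match. Tnfaip3 has a second window, further into the gene, without one. The others were Nfkbid with GGGACTTCCC and GGAATTCCCC, Cyld with GGAAAGTCCC and Bcl3 with GGGAAGTCCC, and the window of Nfkbib held none. Of all 32851 windows, 8.46% held the consensus. A match is a description of the sequence and says nothing of binding in these cells.

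**Figure D1:**
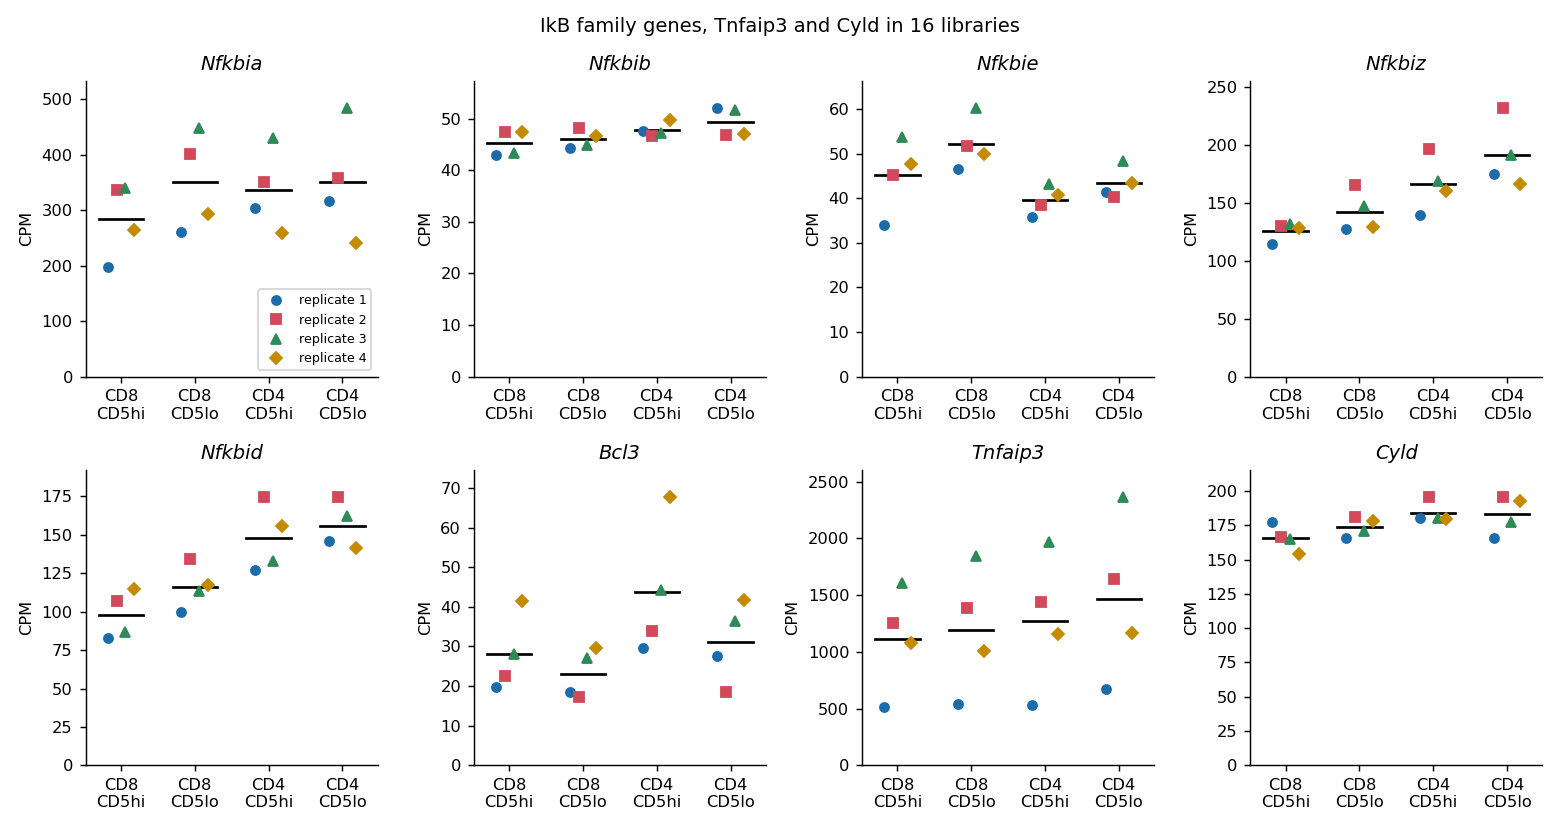
Level in CPM (linear axis from 0, a panel per member) in each of the 16 libraries by group, with the symbol and colour giving the replicate number and a bar for the group mean. Tnfaip3 spreads from 512.9 to 2368 CPM with a like spread inside each group, whereas Nfkbid and Nfkbiz are lower in both CD8 groups than in the CD4 group of the same CD5 level.

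Among the classical IkB genes, Nfkbia encodes IkB-alpha, the inhibitor that NF-kB itself induces most promptly. Nfkbia was at 198, 336, 340.0 and 265 CPM in CD8 CD5hi (replicates 1 to 4), against 262, 401, 448 and 293 in CD8 CD5lo. In CD4 cells it was at 304, 351, 430 and 259.8 CPM in CD4 CD5hi, against 317, 358, 485 and 241 in CD4 CD5lo. All 4 groups overlapped, with replicate 3 the highest of each. The log2 change was -0.30 ± 0.23 (SE) between CD8 CD5hi and CD8 CD5lo, with a 95% interval of -0.79 to 0.19 and an adjusted p of 0.485 (edgeR quasi-likelihood test, n = 4 each). Between CD4 CD5hi and CD4 CD5lo it was -0.06 ± 0.23, with an interval of -0.55 to 0.43, and the CD8 change minus the CD4 change was -0.24 ± 0.32 (adjusted p = 0.981). By group mean the order was CD8 CD5lo at 351 ± 87.8 CPM, CD4 CD5lo at 350.1 ± 102, CD4 CD5hi at 336 ± 72.9 and CD8 CD5hi at 285 ± 67.3 (SD, n = 4), with no neighbours further apart than their SD.

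Nfkbib encodes IkB-beta, the classical inhibitor that is degraded and resynthesised more slowly. It was the steadiest member, at 43.0 to 47.5 CPM in CD8 CD5hi, 44.4 to 48.2 in CD8 CD5lo, 46.6 to 49.7 in CD4 CD5hi and 46.8 to 52.1 in CD4 CD5lo. Group means ran only from 45.3 ± 2.497 CPM in CD8 CD5hi to 49.4 ± 2.89 in CD4 CD5lo, the highest being 1.09 times the lowest, with CD4 CD5hi and CD8 CD5lo between and no step clearly larger than the SDs of its neighbours. It passed the test in 0 of the 5 comparisons.

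Nfkbie encodes IkB-epsilon, a further cytoplasmic inhibitor that NF-kB induces. Nfkbie was at 34.0, 45.3, 53.8 and 47.6 CPM in CD8 CD5hi, against 46.6, 51.7, 60.2 and 50.02 in CD8 CD5lo. In CD4 CD5hi it was at 35.8, 38.4, 43.3 and 40.8 CPM, against 41.4, 40.3, 48.2 and 43.5 in CD4 CD5lo. Groups overlapped, and as with Nfkbia replicate 3 was the highest of each. The log2 changes with CD5 were -0.21 ± 0.12 in CD8 cells (adjusted p = 0.335) and -0.13 ± 0.12 in CD4 cells (adjusted p = 0.836). Of all members it was the only one with higher group means in CD8 than in CD4 cells at both CD5 levels, at 45.2 ± 8.25 CPM in CD8 CD5hi against 39.6 ± 3.21 in CD4 CD5hi, and 52.1 ± 5.80 in CD8 CD5lo against 43.3 ± 3.54 in CD4 CD5lo. In that order, CD8 CD5lo, CD8 CD5hi, CD4 CD5lo and CD4 CD5hi, only the last step exceeded the larger SD of its neighbours, and only slightly.

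Of the atypical IkB genes, Nfkbiz encodes IkB-zeta, a nuclear cofactor of NF-kB dimers. Nfkbiz was at 115, 130.3, 132 and 128 CPM in CD8 CD5hi, against 139.5, 197, 169 and 160.5 in CD4 CD5hi. In the cells with little CD5 it was at 128, 165, 148 and 129 CPM in CD8 CD5lo, against 175, 232, 191.5 and 166 in CD4 CD5lo. Within each CD5 level all 4 CD8 libraries lay below all 4 CD4 libraries. Nfkbiz fell in CD8 cells by 0.40 ± 0.12 on the log2 scale at high CD5 (adjusted p = 0.0172, edgeR quasi-likelihood test) and by 0.43 ± 0.12 at low CD5 (adjusted p = 0.0169). The groups sorted by CD5 overlapped, at 126 ± 8.06 CPM in CD8 CD5hi against 142 ± 17.8 in CD8 CD5lo, and at 166 ± 23.8 in CD4 CD5hi against 191 ± 29.1 in CD4 CD5lo.

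Nfkbid encodes IkBNS, a nuclear IkB protein needed in mice for full development of regulatory T cells. Nfkbid was at 83.0, 107, 86.9 and 115 CPM in CD8 CD5hi, against 127, 175, 133 and 156 in CD4 CD5hi. It was at 99.9, 134, 113.5 and 117 CPM in CD8 CD5lo, against 146, 174, 162 and 142 in CD4 CD5lo. Here too the lineages did not overlap at either CD5 level. The log2 change of CD8 CD5hi against CD4 CD5hi was -0.59 ± 0.13 (adjusted p = 0.00187) and that of CD8 CD5lo against CD4 CD5lo was -0.43 ± 0.13 (adjusted p = 0.0239, edgeR quasi-likelihood test). With CD5, the change in CD8 cells was -0.25 ± 0.13 (interval -0.51 to 0.02, adjusted p = 0.26), and in CD4 cells -0.08 ± 0.13 (adjusted p = 0.955). By mean, Nfkbid was at 98.0 ± 15.5 CPM in CD8 CD5hi and 116 ± 14.2 in CD8 CD5lo, against 148 ± 22.0 in CD4 CD5hi and 156 ± 15.05 in CD4 CD5lo. Nfkbiz had the same order of groups. For Nfkbiz the step between lineages slightly exceeded the larger SD of its neighbours, and for Nfkbid that step and the step between the CD8 groups did.

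Bcl3 encodes a nuclear IkB protein that joins homodimers of the small NF-kB subunits. Bcl3 was at 19.7, 22.7, 28.1 and 41.4 CPM in CD8 CD5hi, against 18.6, 17.2, 27.1 and 29.5 in CD8 CD5lo. It was at 29.5, 33.9, 44.2 and 67.8 CPM in CD4 CD5hi, against 27.6, 18.4, 36.5 and 41.8 in CD4 CD5lo. All groups overlapped, with replicate 4 the highest of each. In both lineages every numbered CD5hi library was higher than the CD5lo library of the same number. Over all genes this held for 16.1% in CD4 cells and 23.2% in CD8 cells, where the numbers did not meet the pairing rule given below. Without regard to the numbers, the log2 change of CD4 CD5hi against CD4 CD5lo was 0.50 ± 0.30 (adjusted p = 0.598) and that of CD8 CD5hi against CD8 CD5lo 0.28 ± 0.30 (adjusted p = 0.65). The CD8 change minus the CD4 change was -0.22 ± 0.42 for Bcl3 (interval -1.12 to 0.68, adjusted p = 0.997), and for the members other than Nfkbia and Bcl3 it lay between -0.17 and 0.10. Its group means spread the most of the members, the highest being 1.90 times the lowest, from 43.9 ± 17.1 CPM in CD4 CD5hi to 23.1 ± 6.09 in CD8 CD5lo, and in that order, with CD4 CD5lo at 31.1 ± 10.3 and CD8 CD5hi at 28.0 ± 9.60 between, no neighbours were further apart than the larger of their SDs.

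Tnfaip3 encodes A20, the ubiquitin-editing enzyme induced by NF-kB. Tnfaip3 was at 512.9, 1252, 1604 and 1079 CPM in CD8 CD5hi, against 544, 1383, 1843 and 1008 in CD8 CD5lo. In CD4 CD5hi it was at 529.9, 1437, 1970 and 1160 CPM, against 676, 1643, 2368 and 1164 in CD4 CD5lo. Every group had its lowest library at number 1 and its highest at number 3, and the groups overlapped almost wholly. The highest library of a group was 3.13 times its lowest in CD8 CD5hi, 3.39 times in CD8 CD5lo, 3.72 times in CD4 CD5hi and 3.501 times in CD4 CD5lo, whereas the highest group mean was 1.32 times the lowest. Means ran in the order CD4 CD5lo, CD4 CD5hi, CD8 CD5lo and CD8 CD5hi, each well within 1 SD of the next. As for Bcl3 and Nfkbia, most of that SD goes with the replicate number, so it does not measure the spread of differences between same-numbered libraries. Tnfaip3 was lower in CD8 than in CD4 cells in 4 of 4 such pairs at both CD5 levels. Over all genes this held for 28.7% at high and 23.6% at low CD5. The log2 change of CD8 CD5hi against CD8 CD5lo was -0.10 ± 0.45, with an interval of -1.06 to 0.85 (adjusted p = 0.93). That of CD4 CD5hi against CD4 CD5lo was -0.20 ± 0.45, with an interval of -1.15 to 0.76 (adjusted p = 0.983). Both intervals reach past a halving at their lower end, while a doubling lies outside them. With the replicate number as a block, described below, the CD4 interval was -0.34 to -0.07.

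Cyld encodes the other deubiquitinase, which trims signalling chains in unstimulated cells. Cyld was at 177, 166, 165 and 154 CPM in CD8 CD5hi, against 180.5, 196, 180.2 and 179.8 in CD4 CD5hi, with no overlap. It was at 166, 181, 171 and 178 CPM in CD8 CD5lo, against 166, 195, 178 and 193 in CD4 CD5lo, which overlapped. The log2 change of CD8 CD5hi against CD4 CD5hi was -0.15 ± 0.06 (adjusted p = 0.084). Sorting by CD5 gave 0.01 ± 0.06 in CD4 cells (adjusted p = 0.995) and -0.07 ± 0.06 in CD8 cells (adjusted p = 0.571), and the highest group mean was 1.11 times the lowest. The order was CD4 CD5hi, CD4 CD5lo, CD8 CD5lo and CD8 CD5hi, each within the larger SD of the next.

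Counted over the members, 0 of 8 passed between CD8 CD5hi and CD8 CD5lo, beside 9.46% of all genes tested. Between CD4 CD5hi and CD4 CD5lo 0 of 8 passed, beside 4.08% of all genes, and 0 of 8 passed for the CD8 change minus the CD4 change, beside 0.310% of all genes. In edgeR 0 members had an unadjusted p under 0.05 in any of these 3 comparisons, and DESeq2 and limma voom also called 0. With the replicate number as a block, 2 of 8 passed between the CD8 groups, Nfkbie and Nfkbid, beside 25.0% of all genes. By the rule given below, the numbers did not pair those samples, with r of 0.562, 0.255, 0.027 and -0.04 at numbers 1 to 4. The pairs numbered 3 and 4 each hold a B cell-rich library, whose part in the low r was not tested. Tnfaip3 and Xist followed the numbers in both CD8 groups, so failing the rule does not show that the samples are unpaired. In same-numbered pairs of the CD8 groups Nfkbia, Nfkbie, Nfkbiz and Nfkbid were lower in CD5hi in 4 of 4 and Bcl3 was higher. Over all genes 23.8% were lower and 23.2% higher in 4 of 4. Without the block, the median log2 change of the members was -0.14 in CD8 cells, against 0.00 over all genes, and -0.07 in CD4 cells, against -0.01. Between lineages, 2 of 8 fell at high CD5, Nfkbid and Nfkbiz, beside 30.3% of all genes called in either direction and 14.8% called lower. At low CD5 the same 2 fell, beside 19.5% called in either direction and 9.44% called lower. The 2 lineage comparisons use different libraries but share the replicate numbers and the same fit, so they are not independent. No overlap in the lower direction was seen for 3 of 8 members at high CD5 and 2 of 8 at low CD5, beside 14.6% and 10.5% of all genes. With those 3 B cell-rich libraries left out, the changes at low CD5 kept their size but missed the threshold, at -0.44 for Nfkbiz (adjusted p = 0.0619) and -0.39 for Nfkbid (adjusted p = 0.0882). At high CD5 they then stood at -0.39 for Nfkbiz (adjusted p = 0.049) and -0.66 for Nfkbid (adjusted p = 0.00206). Of the 6 natural killer cell markers, Nkg7, which CD8 T cells also make, reached 401 CPM in CD8 CD5hi and 335 in CD8 CD5lo, against 0.302 in CD4 CD5hi and 3.84 in CD4 CD5lo, and the other 5 were at most 5.57 CPM in any group. The part of these markers in the lineage results was not tested.

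**Figure D2:**
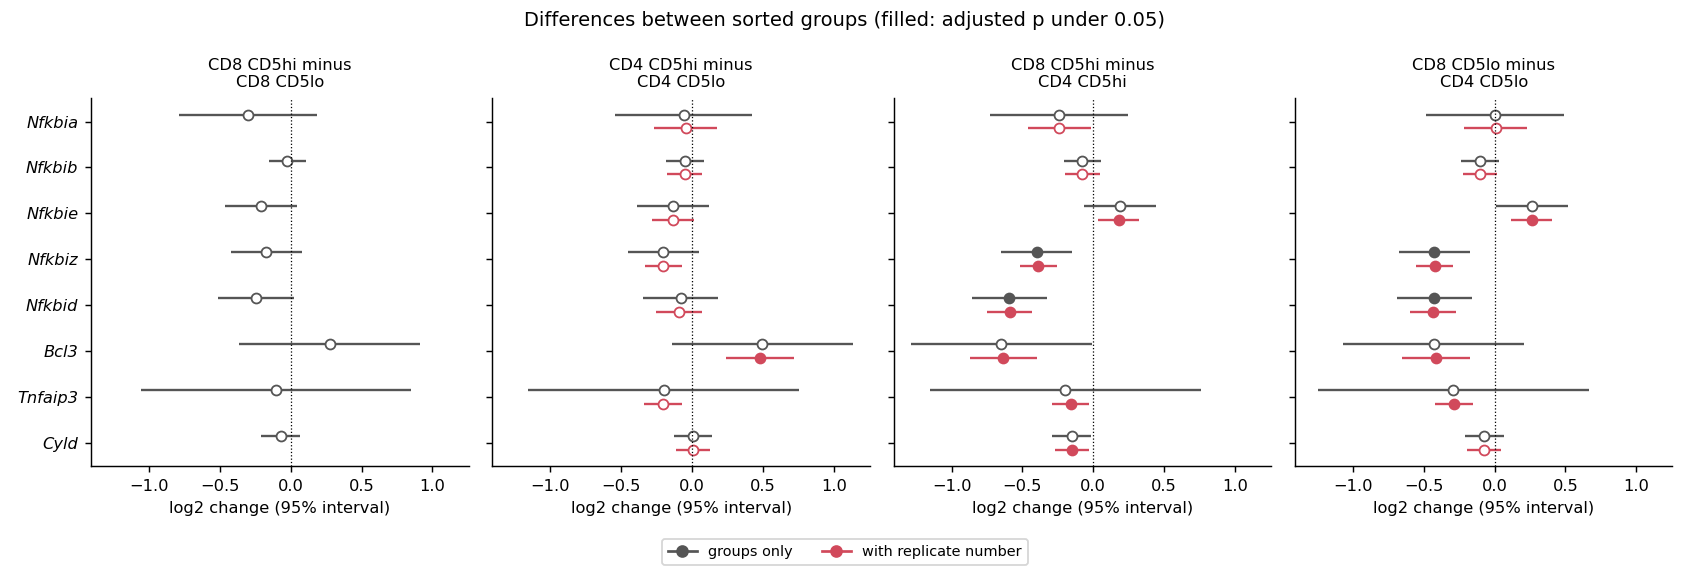
Log2 change with its 95% interval for each member in the 4 comparisons of groups, from the fit on groups alone (grey) and, where the numbers pair the samples, with the replicate number as a block (red); filled points passed an adjusted p of 0.05. Nfkbiz and Nfkbid lie at -0.59 to -0.39 in both lineage comparisons in both fits, and the interval of Tnfaip3 shrinks most when the number enters.

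Libraries of the same number deviated together, so the comparisons were also made with the number as a block in those comparisons where the numbers pair the samples. Between CD4 CD5hi and CD4 CD5lo, Bcl3 rose by 0.48 ± 0.11 on the log2 scale with the block (adjusted p = 0.0122, edgeR), as 1 of 8 members beside 9.68% of all genes. Its differences in the pairs numbered 1 to 4 were 0.10, 0.88, 0.28 and 0.70. Nfkbiz at -0.20 ± 0.06 (adjusted p = 0.0545) and Tnfaip3 at -0.21 ± 0.06 (adjusted p = 0.0526) came just short, and both were lower in CD5hi in 4 of 4 pairs, as was Nfkbie. Over all genes 14.7% were lower in 4 of 4 pairs and 16.1% higher. The 10 regulatory T cell markers summed to 460.3 to 532 CPM in CD4 CD5hi against 139.5 to 182 in CD4 CD5lo, with 0 of them at 0, and Foxp3 was at most 22.1 CPM in CD4 CD5hi and 5.96 in CD4 CD5lo. Izumo1r made up much of the sum, at up to 313 CPM in CD4 CD5hi and 56.7 in CD4 CD5lo. The sum was also higher with CD5 in CD8 cells, at 479 to 566 CPM in CD8 CD5hi against 271 to 371 in CD8 CD5lo. The part of these markers in the change of Bcl3 was not tested.

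Between lineages the block added members. At high CD5, 6 of 8 passed, beside 46.7% of all genes: Nfkbid, Nfkbiz, Bcl3, Tnfaip3 and Cyld fell and Nfkbie rose in CD8 cells. Bcl3 changed by -0.63 ± 0.11 (adjusted p = 0.000325), Tnfaip3 by -0.16 ± 0.06 (adjusted p = 0.0471), Cyld by -0.15 ± 0.06 (adjusted p = 0.0397) and Nfkbie by 0.18 (adjusted p = 0.0419). At low CD5, 5 of 8 passed, beside 32.1%: Nfkbiz, Nfkbid, Bcl3 and Tnfaip3 fell and Nfkbie rose. There Bcl3 changed by -0.41 ± 0.11 (adjusted p = 0.0111), Tnfaip3 by -0.28 ± 0.06 (adjusted p = 0.00251) and Nfkbie by 0.26 ± 0.07 (adjusted p = 0.00793). Once the 3 B cell-rich libraries were left out, with fewer samples, Nfkbie missed the threshold with the block. It then stood at 0.25 at low CD5 (adjusted p = 0.0512) and 0.16 at high CD5 (adjusted p = 0.127), against 0.26 and 0.18 with all libraries. Cyld also missed at high CD5 then (adjusted p = 0.293), whereas Bcl3 and Tnfaip3 still passed at both CD5 levels. Nfkbia then fell at high CD5, by 0.31 (adjusted p = 0.0262), against -0.24 ± 0.10 (adjusted p = 0.0713) with all libraries. At high CD5 with the block and only the 2 groups compared, Nfkbie missed at adjusted p = 0.0625 and Cyld at adjusted p = 0.0608. Cyld was called in 1 of 26 alternatives, the replicate block alone. The part of B cells, which also express Nfkbie, in these changes was not tested.

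The replicate number accounted for nearly all of the spread of Tnfaip3 inside groups, and for much of that of 5 other members. Its share of the within-group variation in log2 CPM was 98.9% for Tnfaip3, 88.7% for Bcl3, 83.6% for Nfkbia, 80.7% for Nfkbiz, 76.6% for Nfkbie and 71.6% for Nfkbid. For Cyld it was 29.9% and for Nfkbib 5.39%, against a median of 58.8% over all genes tested. Only 2 of the 13554 genes had a larger share than Tnfaip3, Mapk6 and Col6a4, named after their values were seen. The within-group SD on the log2 scale was 0.76 for Tnfaip3, larger than for all but 6.46% of genes, then 0.48 for Bcl3 and 0.37 for Nfkbia. It was 0.08 for Cyld and 0.07 for Nfkbib, against a median of 0.20.

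**Figure D3:**
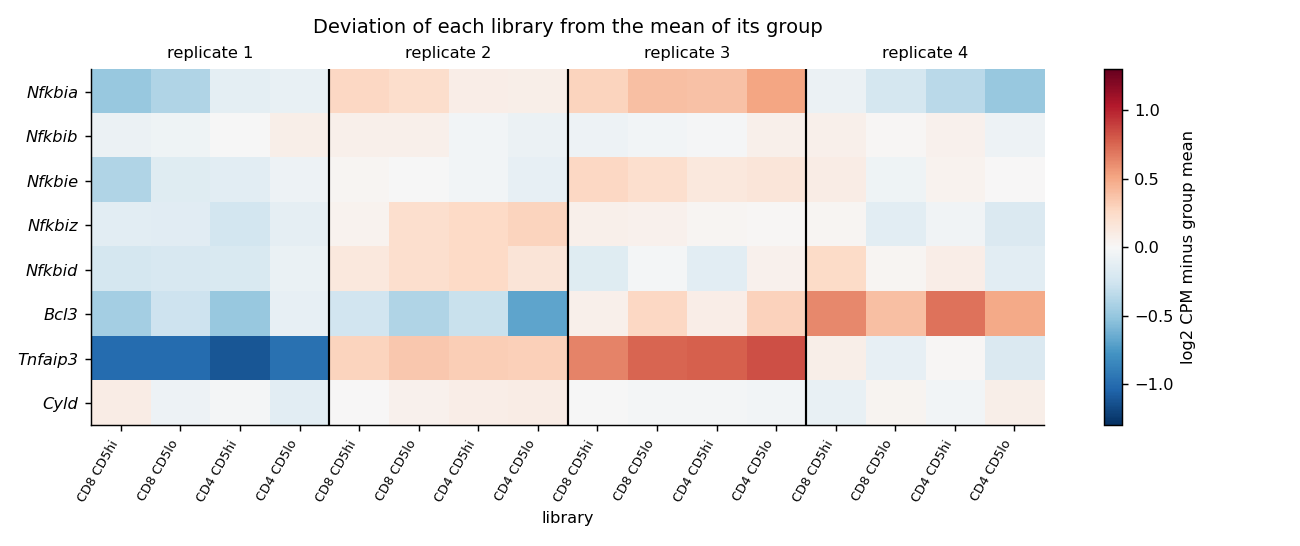
Deviation of each library from its group mean (log2 CPM) as colour, with a row per member and the libraries in columns, ordered by replicate number and then group. Tnfaip3 is lowest in the 4 libraries numbered 1 (blue) and highest in the 4 numbered 3 (red), Bcl3 is highest at number 4, and Nfkbib stays near the pale middle throughout.

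The members did not follow the numbers in 1 pattern. Nfkbia and Nfkbie had their highest library at number 3 in 4 of 4 groups, as Tnfaip3 did. Nfkbiz, Nfkbid and Cyld had it at number 2 in 3 of 4, and Bcl3 at number 4 in 4 of 4, the number whose libraries hold Xist. Over the 16 libraries, within-group deviations of Tnfaip3 correlated with those of Nfkbie at r = 0.80, of Nfkbia at 0.79 and of Nfkbiz at 0.68. The r with Tnfaip3 was 0.49 for Nfkbid, 0.31 for Bcl3, 0.15 for Cyld and 0.09 for Nfkbib. The nuclear genes Nfkbiz and Nfkbid went with each other at 0.73, while Bcl3 went with Nfkbie at 0.56 but with Nfkbiz at -0.27. These are descriptions without a test, and the libraries share numbers, groups and normalisation.

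**Figure D4:**
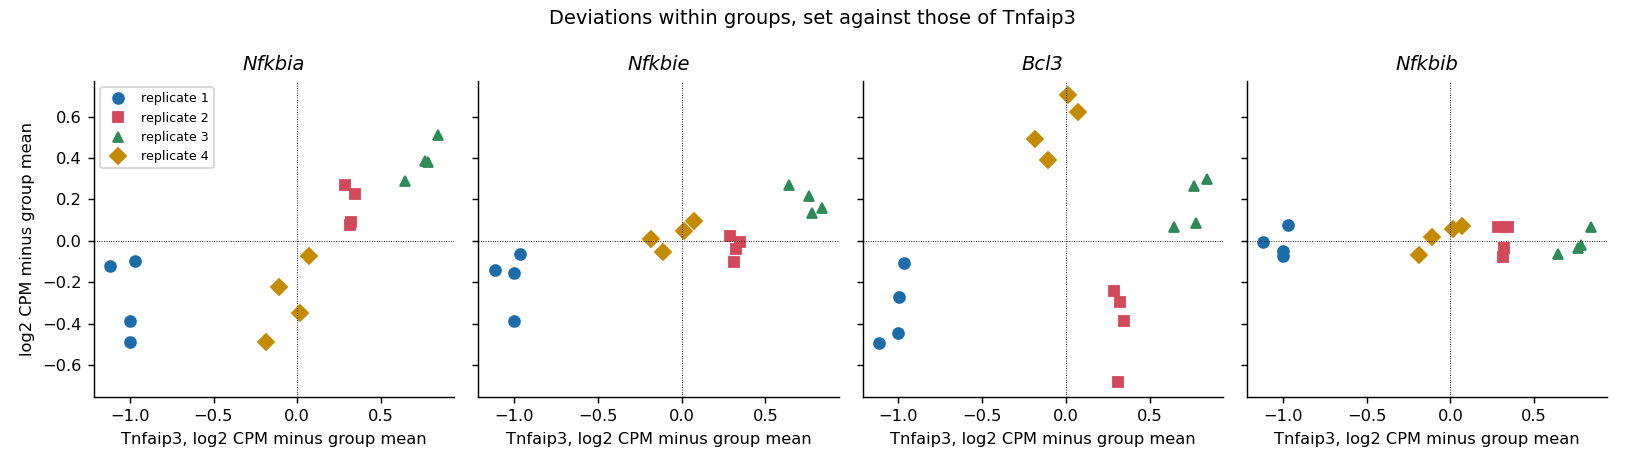
Within-group deviation (log2 CPM) of Nfkbia, Nfkbie, Bcl3 and Nfkbib (y axes) against that of Tnfaip3 (x axes), 1 point per library, with symbol and colour by replicate number. Points of Nfkbia and Nfkbie climb with Tnfaip3 (r of 0.79 and 0.80 over 16 libraries) and those of Bcl3 at number 4 stand above the rest.

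Some genes of early response and handling stress, which can change quickly during cell isolation, moved with the same numbers. Fosl2, an AP-1 subunit, was at 10.3 to 25.5 CPM in the libraries numbered 1, 76.0 to 139 in those numbered 2, 180.3 to 239.6 in those numbered 3 and 55.5 to 99.5 in those numbered 4. Dusp5, a phosphatase of ERK, ran from 7.74 to 27.2 at number 1 to 52.0 to 165 at number 3. The heat shock gene Hspa1a ran the other way, at 187 to 400.4 CPM at number 1 and 29.7 to 60.7 at number 3. Of the 34 genes of that list, 16 had a within-group r above 0.5 with Tnfaip3 and 3 below -0.5, with a median of 0.46, so the other 15 followed it in neither direction by that bound. Over all genes the median was -0.01, and 23.6% were above 0.5. Fos, the classic early gene, was at -0.37, with 677 to 1119 CPM at number 1 and 551 to 749 at number 3. The part of handling in the levels of Tnfaip3 was not tested.

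For each member the 3 genes with the most similar within-group deviations were found among 8975 genes, over 16 libraries. Closest to Tnfaip3 were Dusp4 (r = 0.996), Fosl2 (0.99) and Mxd1 (0.989). Those of Nfkbia were Gadd45b (0.955), Arc (0.943) and Hmgb3 (0.935), and those of Nfkbie were Cry2 (0.974), Foxo4 (0.97) and Ulk1 (0.96). Nfkbiz was closest to Dnajb4 (0.969), Fem1c (0.921) and Kbtbd2 (0.891), and Bcl3 to Crocc (0.945), Stat3 (0.944) and Tmbim6 (0.939). Cyld was closest to Ckap5 (0.933), Purb (0.93) and Zhx1 (0.915). The likeness was lower for Nfkbib, led by Cotl1 (0.858), and for Nfkbid, led by Myo6 (0.823). The largest of 8975 correlations is raised by selection. The 16 libraries are also not independent points, since the replicate number held 71.6 to 98.9% of the within-group variation of the members other than Cyld and Nfkbib.

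Upstream of IkB, the list of IkB kinases, their adaptors and the CARMA1-BCL10-MALT1 complex had 24 genes, all tested. In CD8 cells 1 rose and 2 fell with CD5, beside 9.46% of all genes called in either direction. In CD4 cells 1 rose and 1 fell, beside 4.08%. Malt1, whose protease cleaves A20 and CYLD in activated T cells, was at 210.05 CPM in CD8 CD5hi against 165 in CD8 CD5lo (log2 change 0.35, adjusted p = 0.0133) and at 188 in CD4 CD5hi against 148 in CD4 CD5lo (0.34, adjusted p = 0.0254). Traf5, an adaptor of TNF receptors, was at 53.1 CPM in CD8 CD5hi against 64.8 in CD8 CD5lo (-0.29, adjusted p = 0.00697) and at 79.5 in CD4 CD5hi against 95.1 in CD4 CD5lo (-0.26, adjusted p = 0.0239). The medians of the list were -0.08 in CD8 and -0.01 in CD4 cells. Between lineages 1 rose and 8 fell at high CD5, beside 30.3% of all genes called in either direction and 14.8% called lower. At low CD5 1 rose and 3 fell, beside 19.5% in either direction and 9.44% lower. With the block 2 rose and 9 fell at high CD5, beside 46.7% in either direction and 23.3% lower. At low CD5 2 rose and 6 fell with the block, beside 32.1% and 16.3%. Taken in either direction, these lineage counts are near the shares over all genes, but more of the called genes fell than rose. At high CD5 Ikbke, an IkB kinase-related kinase, changed by -0.55 (adjusted p = 4.6e-05), Traf2 by -0.33 (adjusted p = 0.000444) and Ripk1 by 0.27 (adjusted p = 0.00107). Of 5 NF-kB subunit genes, 0 changed with CD5 in either lineage, and Nfkb1 fell in CD8 CD5hi against CD4 CD5hi by 0.19 (adjusted p = 0.0213), or 2 genes with the block. Of 10 genes for the ubiquitin ligase and other handling of IkB, 0 changed with CD5 and 0 changed between lineages at low CD5. At high CD5, 2 fell in CD8 cells: Btrc, which recognises phosphorylated IkB (-0.28, adjusted p = 0.0458), and Nkiras1, which binds IkB (-0.21, adjusted p = 0.0268). The counts of subunit and handling genes stand beside the same shares of all genes as those of the kinase list.

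Of 20 other feedback inhibitors of NF-kB, 19 were tested, and Traf1 fell with CD5 in both lineages. In CD8 cells 1 rose and 1 fell with CD5, beside 9.46% of all genes called in either direction. In CD4 cells 0 rose and 2 fell, beside 4.08%, or 2 rose and 2 fell with the block, beside 9.68%. Traf1, an NF-kB target that also tempers TNF receptor signals, was at 129.5 ± 16.4 CPM in CD8 CD5hi against 187 ± 25.2 in CD8 CD5lo (log2 change -0.53, adjusted p = 0.0245), and at 69.4 ± 10.4 in CD4 CD5hi against 106 ± 19.1 in CD4 CD5lo (-0.60, adjusted p = 0.0197). Tnip2, whose product binds A20, was at 19.2 CPM in CD8 CD5hi against 13.1 in CD8 CD5lo (0.56, adjusted p = 0.000655). In CD4 cells it was at 26.2 CPM in CD5hi against 21.3 in CD5lo, and rose with the block (0.30, adjusted p = 0.00794), as did Otud7b (0.22, adjusted p = 0.0276). Nlrc5 fell with CD5 in CD4 cells by 0.26 (adjusted p = 0.00774). Between lineages 3 rose and 4 fell at high CD5, with Traf1 at 0.90 (adjusted p = 0.000131), Nlrc5 at 0.59 (adjusted p = 3.09e-07), the deubiquitinase gene Otud1 at -0.85 (adjusted p = 0.000207) and Tnip2 at -0.45 (adjusted p = 0.000803), and 3 rose and 3 fell at low CD5, beside 30.3% and 19.5% of all genes. The median log2 changes of the list were -0.04 with CD5 in CD8 cells, 0.02 with CD5 in CD4 cells, -0.06 between lineages at high CD5 and -0.05 at low CD5.

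Downstream, 33 of 34 listed NF-kB target genes were tested, a list that shares Traf1, Birc3 and 4 subunit genes with those above. With CD5, 3 rose and 3 fell in CD8 cells and 4 rose and 2 fell in CD4 cells, with medians of 0.04 and -0.16. These counts stand beside 9.46% of all genes in CD8 and 4.08% in CD4 cells. Tnfrsf9, the costimulatory receptor 4-1BB, rose most clearly, by 1.98 in CD8 (adjusted p = 5.27e-07) and 2.79 in CD4 cells (adjusted p = 3.9e-09). Its mean was 13.6 CPM in CD8 CD5hi against 3.45 in CD8 CD5lo, and 19.4 in CD4 CD5hi against 2.79 in CD4 CD5lo. Tnfrsf9 and Il2ra are also among the regulatory T cell markers above, and the part of such cells in the rise was not tested. The survival gene Bcl2a1b rose by 0.93 in CD8 (adjusted p = 0.00849) and 1.08 in CD4 cells (adjusted p = 0.00485). Tnf, the cytokine gene, fell in CD8 CD5hi by 0.76 (adjusted p = 0.00733). Between lineages 8 rose and 9 fell at high CD5, beside 30.3% of all genes, and 6 rose and 4 fell at low CD5, beside 19.5%. With the block 10 rose and 12 fell at high CD5, beside 46.7%, and 7 rose and 7 fell at low CD5, beside 32.1%. Of the 34 early response and handling stress genes, 0 rose and 5 fell with CD5 in CD8 cells, and 1 rose and 1 fell in CD4 cells, or 2 rose and 5 fell with the block. Between lineages 3 rose and 10 fell at high CD5, or 9 and 16 with the block, and 3 rose and 6 fell at low CD5, or 7 and 13 with the block, beside the same shares of all genes as above.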

How the data were processed

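The authors deposited raw counts per gene, 1 table of 24421 genes with a column for each of the 16 libraries; 0 columns were without a sample. RNA came from TRIzol and RNeasy, and libraries from either TruSeq kit, per the labels' protocols. STAR 2.5.2a, featureCounts 1.4.6-p3, DESeq2 and mm10 are named in the submitters' processing notes. The kit of each sample, the strand setting, the annotation and the joining of technical runs were not given in the sources used here. Low counts were mostly even (73.9 to 80.5% of counts from 1 to 9, against 49.2 to 51.3% of counts of 1000 or more), so halved counts were tried.

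Counts were scaled by TMM (factors 0.981 to 1.017), filtered by filterByExpr (minimum count 10, minimum total 15) and tested with edgeR 4.0.16 in R 4.3.3: 1 term per group over all 16 libraries (12 residual degrees of freedom), two-sided quasi-likelihood F tests, Benjamini-Hochberg adjustment over 13554 genes in each of 5 comparisons, threshold 0.05. The script was tested on simulated data. Alternatives were DESeq2 1.42.0 and limma 3.58.1 voom, other scaling and filtering, fewer groups, the replicate number as a block (9 residual degrees of freedom), each library left out, and the 3 B cell-rich libraries left out. Within-group deviations are of log2 CPM with a prior count of 2.

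The numbers were taken to pair samples where the deviations of every same-numbered pair correlated above 0.1. This held for CD4 CD5hi with CD4 CD5lo (r 0.25 to 0.53), CD8 CD5hi with CD4 CD5hi (0.23 to 0.54) and CD8 CD5lo with CD4 CD5lo (0.20 to 0.70).

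The members, gene lists and tests were chosen with earlier results of these data known. All 8 members are named. Of each list, at most the 4 called genes with the smallest adjusted p are named per comparison, and for likeness the 3 genes with the highest within-group correlation and a mean of at least 5 CPM. Promoters were matched by symbol in RefSeq, and positions and lengths are from GENCODE vM21.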

Additional observations from a re-analysis of the deposited data

Results flagged for a closer look

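Cyld in CD4 CD5hi replicate 2 stood apart from the rest of its group, at 196 CPM against 179.8 to 180.5 in the other 3 libraries. The gap was 0.959 of the group's range. Of 32 sets of 4 libraries checked (8 members in 4 groups) this was the 1 found, and chance alone gives about 1 in 20. Number 2 was also the highest Cyld library in CD8 CD5lo (181 CPM) and in CD4 CD5lo (195 CPM).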

How the results depend on the processing

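The 8 members in 5 comparisons gave 1024 values under alternatives: 982 kept their direction and side of the threshold, or were uncalled in both, 11 lost a call, 31 gained one and 0 called values changed sign. In CD8 CD5hi against CD8 CD5lo the numbers did not pair the samples by the rule used (r -0.04 to 0.56). Over all groups, however, 15 of 16 libraries had their highest mean correlation with the libraries of their own number in the other groups. The replicate block called 2 of 8 members between the CD8 groups (Nfkbie and Nfkbid), beside 25.0% of all genes. The difference of the CD5 effects stayed at 0 in all settings. With the replicate block the counts were 1 for CD5 in CD4 cells, 5 for lineage at low CD5 and 6 at high CD5. With the block and only the 2 groups compared, a setting chosen after seeing the data, they were 2 for CD5 in CD4 cells (Bcl3 and Nfkbiz), 2 in CD8 cells (Nfkbia and Nfkbid), 5 for lineage at low CD5 and 4 at high CD5. With the block and the 3 B cell-rich libraries left out, also chosen after seeing the data, they were 1, 2, 4 and 5 in the same order. Without those libraries and without a block, the count for lineage at low CD5 was 0, with fewer samples. Leaving out 1 library at a time gave 0 to 0 calls for CD5 in each lineage and for the difference, 0 to 3 for lineage at low CD5 and 1 to 3 at high CD5. Nfkbid at high CD5 kept its call in 16 of 16 (adjusted p 0.000899 to 0.00952). At low CD5 Nfkbiz lost it without CD4 CD5lo replicate 2 (adjusted p = 0.0701), CD8 CD5lo replicate 1 (0.056) or CD8 CD5lo replicate 4 (0.0552), and Nfkbid without CD4 CD5lo replicate 2 (0.0788) or 3 (0.0548) or CD8 CD5lo replicate 1 (0.079) or 3 (0.0579). At high CD5 Nfkbiz lost it without CD4 CD5hi replicate 2 (0.0801) or CD8 CD5hi replicate 1 (0.0588). Without CD8 CD5hi replicate 1, Nfkbie was called higher in CD8 cells at low CD5 (adjusted p = 0.0468) and at high CD5 (0.0249), and without CD8 CD5hi replicate 4, Bcl3 was called lower at high CD5 (0.0359). The cause of these changes was not tested. Each member had at least 1359 counts in every library, and the shares of counting error and of spread between libraries in the SEs were not separated.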
